A study of Mus musculus with 4 samples.

Results

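Complement components and regulators were followed in the epithelium of small-intestinal crypts after bone marrow transplantation (BMT). They make up 6 of the 31053 genes counted and were taken by symbol: the components C3, C2 and Cfb, and the regulators Serping1, Cd55 and Cd59a. Their unique molecular identifiers (UMIs, each standing for 1 captured RNA molecule) were summed per library and per class of epithelial cell. All 4 single-cell libraries came from lethally irradiated female mice aged 8 to 12 weeks, 7 days after BMT. The allogeneic recipients, C57BL/6 mice given BALB/c marrow, are labelled as mice with graft-versus-host disease, and the syngeneic recipients, C57BL/6 mice given C57BL/6 marrow, are the controls. Each group had 2 libraries, and each library pooled 3 to 4 mice, so the spread between single mice cannot be seen. Both groups carry the effects of irradiation and transplantation, and unirradiated mice were not analysed here. The library names begin with KO, but the labels name no deleted gene.

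Complement is a cascade of serum proteins that tags and punctures target cells. C3 is its central component. The classical and lectin pathways cleave C3 with an enzyme that holds a fragment of C2, and the alternative pathway with one that holds a fragment of factor B, the product of Cfb. Serping1 encodes the C1 inhibitor, a secreted serpin that blocks the starting proteases of the classical and lectin pathways. Cd55 encodes decay-accelerating factor, which takes the C3-cleaving enzymes apart on the cell surface, and Cd59a encodes a surface protein that blocks the pore-forming complex. The liver makes most of the circulating components, and gut epithelium and stroma also make some of them locally.

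RefSeq promoter windows on GRCm38.p6 were at hand for 3 of the 6 members, C3, Cd55 and Cd59a. The windows of C3, the member that passed the test over all epithelial cells, and of Cd55, which passed it in no class, are shown beside each other. Each runs 300 bases, with 250 before the start of the gene and 50 after it, on the minus strand. C3 is at chr17:57228087-57228386 and Cd55 at chr1:130462695-130462994. Capitals mark a match to any of 4 motifs searched on both strands.
C3: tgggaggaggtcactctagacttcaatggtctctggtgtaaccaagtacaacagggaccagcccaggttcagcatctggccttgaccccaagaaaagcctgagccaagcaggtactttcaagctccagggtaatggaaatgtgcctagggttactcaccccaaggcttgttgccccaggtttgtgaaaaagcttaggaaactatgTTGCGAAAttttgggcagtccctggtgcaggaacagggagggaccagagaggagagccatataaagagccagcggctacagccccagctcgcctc
Cd55: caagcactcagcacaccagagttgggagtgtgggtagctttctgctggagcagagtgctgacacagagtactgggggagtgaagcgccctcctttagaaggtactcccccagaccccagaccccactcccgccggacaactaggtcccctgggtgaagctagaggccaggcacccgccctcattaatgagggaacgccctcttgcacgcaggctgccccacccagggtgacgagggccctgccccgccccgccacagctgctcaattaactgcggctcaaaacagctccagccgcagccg

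The C3 window held 1 match, TTGCGAAA, whose first base lies at -45 from the start of the gene. It is the reverse strand of TTNNGCAA, the letters searched for C/EBP factors, which 10.8% of 32851 promoter windows of this length hold. The letters TTCNNNGAA for STAT factors (8.3% of windows), GAAA and GAAA with any 2 bases between them for interferon regulatory factors (3.44%), and GGG and TTCC with any 3 bases between them for NF-kB (5.56%) had no match in the C3 window, and no motif of the 4 matched in the Cd55 window. The Cd59a window held 1 interferon regulatory factor match, GAAAGGGAAA, at -187. No match overlapped another, and a match is a description of the letters only.

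After filtering, the libraries held 2052 and 4804 allogeneic cells and 2872 and 2457 syngeneic cells. Of these, 1811 and 4616 allogeneic cells and 2859 and 2426 syngeneic cells carried at least 2 UMIs of epithelial markers, with 13643598 and 24349024 UMIs in the allogeneic sums and 16599994 and 13434917 UMIs in the syngeneic sums. Cells were then given the class whose fixed markers scored highest (stem-like, cycling progenitor-like, enterocyte-like, Paneth-like, goblet-like, enteroendocrine-like and tuft-like, written here without the ending). Each class had the highest summed level of its own marker list in every library, which the gate itself favours, and 285 and 1074 allogeneic and 581 and 560 syngeneic epithelial cells reached no class. The mix differed: enterocytes were 355 and 1753 of the allogeneic cells and 455 and 462 of the syngeneic cells, while stem cells were 270 and 117 against 444 and 235. Allogeneic 1 stood apart in quality, with 27.2% of its barcodes over the 20% mitochondrial limit, against 11.2% to 14.9% in the other 3 libraries. In most gated classes the groups fell mostly into different clusters when all cells were clustered on their whole profiles. Among cycling progenitors, cluster 12, led by Ly6c1 and Rrm2, and cluster 9, led by Cxcl9 and Cxcl10, held 39.0% and 37.4% of allogeneic cells and 0.768% and 0% of syngeneic cells, while cluster 21, led by Olfm4 and Clca3b, held 1.57% of allogeneic and 51.6% of syngeneic cells. Cluster 9 also held 57.6% of allogeneic goblet and 44.2% of allogeneic Paneth cells, against 0.115% and 0% of the syngeneic ones. Syngeneic goblet cells lay mostly in clusters 2 (47.9%) and 4 (36.1%) and syngeneic Paneth cells in cluster 10 (54.6%). Cluster 5 held 28.1% of allogeneic and 28.5% of syngeneic Paneth cells. Stem cells lay most often in cluster 7 in the allogeneic group (47.3%) and in cluster 8 in the syngeneic group (56.996%). Enterocytes lay in clusters 1 (51.9%) and 0 (31.5%) in the allogeneic group and in clusters 19 (60.9%) and 13 (38.8%) in the syngeneic group. These shares pool the libraries of a group, and the allogeneic libraries differed. Cluster 7 held 173 and 10 stem cells and 169 and 14 cycling progenitors of allogeneic 1 and allogeneic 2, and cluster 12 held 22 and 65 stem cells. Cluster 9 held 72 and 313 goblet cells and 54 and 188 Paneth cells of these libraries. Their Paneth cells numbered 73 and 81 in cluster 5 and 56 and 35 in cluster 10. Enterocytes of allogeneic 1 numbered 30, 15 and 299 in clusters 1, 0 and 16, against 1064, 649 and 6 in allogeneic 2. Enteroendocrine and tuft cells of both groups lay mostly in 1 cluster each. The part of this split in the differences within classes was not tested. Of 12168 kept barcodes, 17 occurred in more than 1 library. Levels are given as UMIs in each 1000000 UMIs of the sum (CPM), with 95% exact Poisson or Clopper-Pearson intervals where stated, which cover counting error only.

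In all epithelial cells together, C3, C2 and Serping1 RNA was more abundant in both allogeneic libraries than in either syngeneic one, Cfb was less abundant in both, and Cd55 and Cd59a had overlapping groups. All 6 members passed the filter on low counts. Only C3 passed the test, edgeR's quasi-likelihood fit with Benjamini-Hochberg adjustment over 12051 genes and a threshold of 0.05. That threshold was passed by 17 genes, or 0.141% of those tested, of which 16 were higher in allogeneic epithelium (0.133%). Over all genes 41.1% had groups that did not overlap, so the lack of overlap alone is common here.

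**Figure D1:**
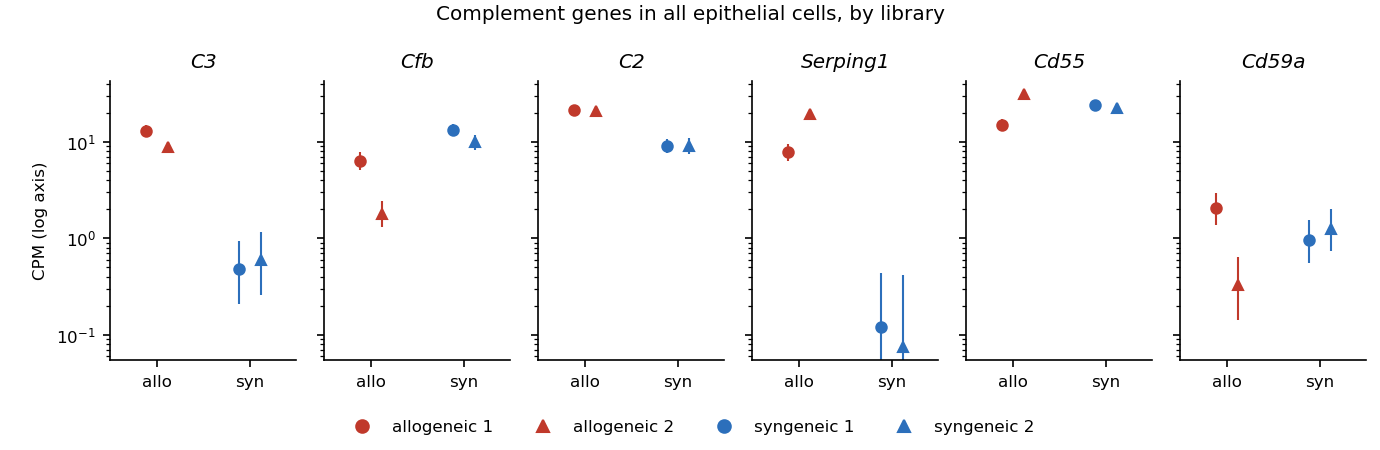
Level of each complement gene in the sum of all epithelial cells, in CPM on a log axis, for 2 allogeneic (allo) and 2 syngeneic (syn) libraries; bars are 95% exact Poisson intervals. C3 and Serping1 sit at 7.77 to 19.3 CPM in the allogeneic libraries and under 1 CPM in the syngeneic libraries, while Cd55 lies between 14.9 and 31.5 CPM with the groups overlapping.

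C3 (ENSMUSG00000024164, chromosome 17, 57203970 to 57228136 in GENCODE M21 on GRCm38) had 177 and 214 UMIs in the allogeneic epithelial sums and 8 and 8 UMIs in the syngeneic sums. These are 13.0 and 8.79 CPM in allogeneic epithelium and 0.482 and 0.595 CPM in syngeneic epithelium, a ratio of the summed rates of 19.3 (counting interval 11.75 to 34.1). C3 rose in allogeneic epithelium by a log2 fold change of 4.34 ± 0.34 (SE, edgeR adjusted p = 0.0336). With the mitochondrial limit at 10% the fold change was 4.55 and the adjusted p 0.0735, in a fit in which no gene passed and 1017 had an unadjusted p under 0.05; over all 14 alternatives the adjusted p ran between 5.09e-14 and 0.0735. The allogeneic counts were spread over 116 and 177 cells, the most in 1 cell being 10 and 4 UMIs. The syngeneic counts came from 7 and 5 cells.

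By class, C3 was seen in every epithelial class of the allogeneic libraries and was at 0 or near it in every syngeneic class. In cycling progenitors it had 92 and 71 UMIs in the allogeneic libraries and 1 and 1 UMI in the syngeneic libraries, or 19.4 and 9.99 CPM against 0.331 and 0.413 CPM. This difference passed the test (log2 fold change 5.25 ± 0.61, edgeR adjusted p = 0.000888), in a class where 321 of 10165 genes passed (3.16%, with 1.77% higher in allogeneic cells). In goblet cells C3 had 14 and 13 UMIs in the allogeneic libraries and 0 and 1 UMI in the syngeneic libraries, and its log2 fold change of 4.94 ± 0.90 fell short of the threshold (edgeR adjusted p = 0.0990; 0.292% of genes passed in that class). C3 was too low for the filter in the other classes. Its summed counts there were 73 against 3 in enterocytes, 18 against 2 in stem cells and 18 against 1 in Paneth cells, allogeneic against syngeneic, and the ratios per UMI were 10.7 (3.53 to 53.2), 10.5 (2.51 to 93.0) and 29.7 (4.69 to 1238). Of the 14 goblet UMIs of allogeneic 1, 7 came from 1 cell. In enteroendocrine cells it had 1 and 3 UMIs in the allogeneic libraries and none in the syngeneic libraries. In tuft cells it had 6 and 1 UMI in the allogeneic libraries and none in the syngeneic libraries. Against a floor of 3 counts over the syngeneic group, the pooled ratio per UMI was 2.61, with no counting error of the allogeneic UMIs. The order of the allogeneic means ran from cycling progenitors (14.7 ± 6.68 CPM, SD, n = 2) and tuft cells (13.5 ± 11.1) through enteroendocrine cells (11.2 ± 8.50), goblet cells (7.74 ± 3.53), enterocytes (7.18 ± 4.13) and stem cells (5.39 ± 1.88) to Paneth cells (4.65 ± 1.04), and each neighbouring pair overlapped. The places of tuft and enteroendocrine cells in this order rest on those few counts.

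C2 (ENSMUSG00000024371, chromosome 17, 34862604 to 34898265) had 291 and 504 UMIs in the allogeneic epithelial sums and 150 and 122 UMIs in the syngeneic sums. The levels were 21.3 and 20.7 CPM in allogeneic epithelium and 9.04 and 9.08 CPM in syngeneic epithelium, so that the 2 libraries of a group lay much closer to each other than to the other group. The log2 fold change of 1.27 ± 0.23 did not pass in the main test (edgeR adjusted p = 0.152). It passed when the classes were given equal weight in each library (1.78, edgeR adjusted p = 0.0411), in DESeq2 (1.27, adjusted p = 0.0297) and with no filter on low counts. It passed in no other alternative that kept all libraries. Equal weight scales up the counts of small classes, such as the 29 and 34 allogeneic enteroendocrine cells, and tests them as observed counts.

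C2 passed the test in 2 classes, and its log2 fold change was positive in each class that could be fitted. In stem cells it had 44 and 16 UMIs in the allogeneic libraries and 8 and 5 UMIs in the syngeneic libraries, or 19.7 and 21.7 CPM against 3.56 and 4.14 CPM (log2 fold change 2.49 ± 0.42, edgeR adjusted p = 0.0278), where 62 of 9026 genes passed (0.687%). In Paneth cells it had 39 and 36 UMIs in the allogeneic libraries and 11 and 7 UMIs in the syngeneic libraries, or 21.8 and 17.6 CPM against 3.22 and 2.40 CPM (log2 fold change 2.47 ± 0.37, edgeR adjusted p = 0.0280), where 58 of 9034 genes passed (0.642%). The call in stem cells did not hold without syngeneic 1 (adjusted p = 0.350), without syngeneic 2 (0.0746) or in DESeq2 (0.0608), the adjusted p running between 4.59e-06 and 0.350 over 12 alternatives. Goblet cells gave 17.6 and 22.2 CPM in the allogeneic libraries and 2.91 and 4.36 CPM in the syngeneic libraries, with a log2 fold change of 2.60 ± 0.43 (edgeR adjusted p = 0.0862).

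The ratios were nearer to 1 in enterocytes and cycling progenitors, the named classes with the most C2 in the syngeneic libraries. Enterocytes had 51.1 and 31.7 CPM in the allogeneic libraries and 25.8 and 20.0 CPM in the syngeneic libraries, a log2 fold change of 0.99 ± 0.32 (edgeR adjusted p = 0.155; 3.14% of genes passed in enterocytes). Cycling progenitors had 13.5 and 12.4 CPM in the allogeneic libraries and 6.29 and 7.01 CPM in the syngeneic libraries, a log2 fold change of 1.06 ± 0.33 (edgeR adjusted p = 0.129). In the syngeneic libraries enterocytes (22.9 ± 4.10 CPM, SD, n = 2) lay above all other named classes, whose means ran between 2.81 CPM in Paneth cells and 6.65 CPM in cycling progenitors. In the allogeneic libraries enterocytes (41.4 ± 13.7 CPM) and tuft cells (33.3 ± 16.9) overlapped, and stem, goblet and Paneth cells lay together at 20.7 ± 1.39, 19.9 ± 3.28 and 19.7 ± 2.97 CPM. Epithelial cells that reached no class had 22.0 and 18.0 CPM of C2 in the allogeneic libraries and 20.0 and 18.7 CPM in the syngeneic libraries.

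A fit over 11425 genes in all 7 classes, with a term for each library, asked whether the allogeneic effect depended on the class, and 3.32% of genes passed. C2 did not pass (edgeR adjusted p = 0.0590), and neither did any other member, with adjusted p-values from 0.329 for Cd59a to 0.988 for Cfb. With the 5 larger classes alone C2 passed (adjusted p = 0.0315), and its effect in goblet cells exceeded that in enterocytes by 1.63 on the log2 scale (adjusted p = 0.0477). A p above the threshold does not show that the effects were alike across classes.

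Cfb (ENSMUSG00000090231, chromosome 17, 34856374 to 34862518), the neighbour of C2, went the other way. It had 87 and 44 UMIs in the allogeneic epithelial sums and 220 and 133 UMIs in the syngeneic sums, or 6.38 and 1.81 CPM against 13.3 and 9.90 CPM. The ratio of the summed rates was 0.293 (counting interval 0.238 to 0.360), but the 2 allogeneic libraries differed from each other as well, and the log2 fold change of -1.58 ± 0.48 did not pass (edgeR adjusted p = 0.348; 0.0083% of genes passed as lower in allogeneic cells). Without allogeneic 1 the fold change was -2.45 and without allogeneic 2 it was -1.03, and over all 14 alternatives the adjusted p ran between 4.43e-10 and 0.881. In GENCODE M21, 79.5% of the exonic bases of Cfb, and 388 of the last 500, are shared with Gm20547, a read-through gene on the same strand that had 0 counts in all 4 libraries. A read in that stretch matches both genes, and how such reads were assigned is not given in the sources used here, so the level of Cfb is uncertain. For C2, 31 of the last 500 exonic bases are shared with Gm20547, and for the other 4 members none are shared with a gene on the same strand.

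Cfb was lower in allogeneic cells in each class that could be fitted, with log2 fold changes of -1.27 ± 0.54 in stem cells, -1.80 ± 0.58 in cycling progenitors, -1.50 ± 0.58 in enterocytes and -1.80 ± 0.69 in goblet cells. None of these passed in the edgeR fit described above (adjusted p = 0.566, 0.152, 0.242 and 0.583). With no filter on low counts Cfb passed in cycling progenitors (-1.78, edgeR adjusted p = 0.00377), enterocytes (-1.46, 0.0150) and goblet cells (-1.82, 0.00824), and at the 10% mitochondrial limit it passed in enterocytes (-2.57, 0.00654). Over all genes, 668 of 15322, 568 of 13574 and 379 of 14594 passed in those fits with no filter. At the 10% limit 363 of 5489 genes passed in enterocytes. Without allogeneic 1 the log2 fold change of Cfb was -3.38 in cycling progenitors, -2.68 in enterocytes and -3.78 in goblet cells. Leaving out another library brought it as near to 0 as -0.99, -0.52 and -0.83 in these classes. Enterocytes, where Cfb was highest in the syngeneic libraries, had 17.7 and 3.17 CPM in the allogeneic libraries and 29.0 and 23.1 CPM in the syngeneic libraries. In goblet cells it had 8.05 and 0.807 CPM in the allogeneic libraries and 16.4 and 10.9 CPM in the syngeneic libraries. In both classes allogeneic 2 was well under allogeneic 1, and the groups did not overlap, as for 46.3% of genes in enterocytes and 37% in goblet cells. Below enterocytes (26.0 ± 4.19 CPM, SD, n = 2) the syngeneic means ran through tuft cells (16.5 ± 8.70), goblet cells (13.6 ± 3.89), cycling progenitors and stem cells (both 8.84) and Paneth cells (5.67 ± 3.17) to enteroendocrine cells (5.29 ± 7.48). In that order the values did not overlap between enterocytes and tuft cells or between goblet cells and cycling progenitors, and all other neighbours overlapped. The tuft values rest on 3 and 5 UMIs, and the counting interval of the higher, 7.34 to 52.8 CPM, spans the enterocyte values.

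**Figure D2:**
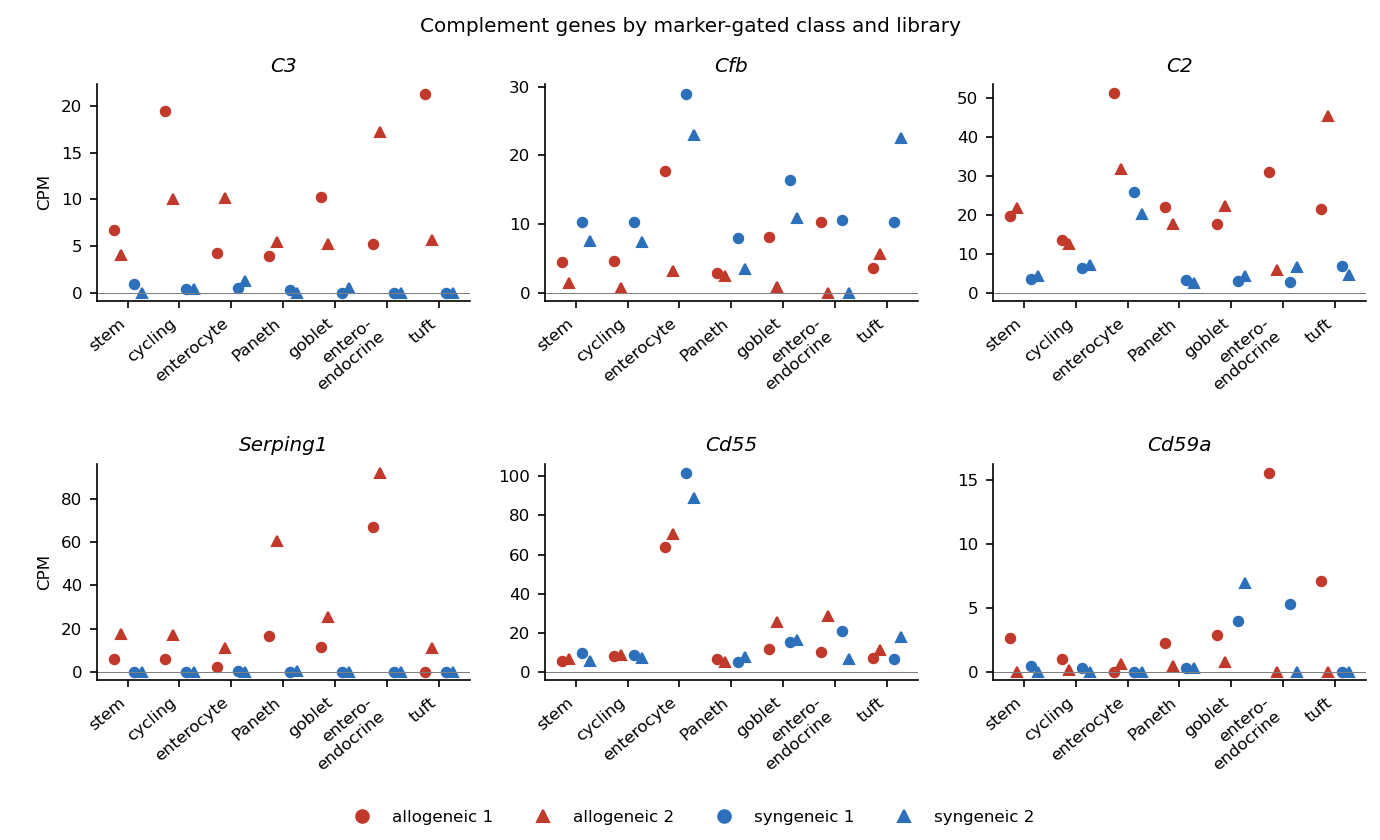
Level of each complement gene by marker-gated class, in CPM on linear axes, 1 point per library, with the allogeneic libraries left of the syngeneic ones in each class. C2 and C3 sit mostly higher and Cfb mostly lower in the allogeneic libraries, Serping1 reaches 67.1 and 91.7 CPM in allogeneic enteroendocrine cells, and Cd55 is highest in enterocytes in all 4 libraries.

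Serping1 (ENSMUSG00000023224, chromosome 2, 84765387 to 84775444), the regulator that acts at the start of the cascade, was close to absent in syngeneic epithelium. It had 106 and 470 UMIs in the allogeneic epithelial sums and 2 and 1 UMI in the syngeneic sums, or 7.77 and 19.3 CPM against 0.120 and 0.0744 CPM. The ratio of the summed rates was 152 (counting interval 51.7 to 738). The log2 fold change was 7.13 ± 0.91 and did not pass over all epithelial cells in the main test (edgeR adjusted p = 0.0948). It passed in DESeq2 (adjusted p = 1.59e-10), with no filter on low counts and with equal weight for the classes (8.49, edgeR adjusted p = 0.00526). In the other alternatives that kept all libraries it did not pass, with an adjusted p of up to 0.140. Equal weight scales up small classes, such as the 13 and 16 Serping1 UMIs of allogeneic enteroendocrine cells, and tests them as observed counts. The allogeneic counts came from 89 and 377 cells, with at most 4 and 7 UMIs in 1 cell.

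Serping1 passed the test in cycling progenitors and in Paneth cells, and its log2 fold change was positive in each class that could be fitted. Cycling progenitors had 29 and 122 UMIs in the allogeneic libraries and none in either syngeneic library, which makes it at least 23.2-fold higher against a floor of 3 counts over the group (edgeR adjusted p = 0.00779). Paneth cells had 30 and 124 UMIs in the allogeneic libraries and 0 and 1 UMI in the syngeneic libraries, or 16.8 and 60.7 CPM against 0 and 0.343 CPM (log2 fold change 7.28 ± 0.99, edgeR adjusted p = 0.0146). Both calls held in all 12 alternatives run for their class.

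Serping1 was at 0 in both syngeneic libraries in stem, goblet, enteroendocrine and tuft cells as well. Goblet cells had 16 and 63 UMIs in the allogeneic libraries, a pooled ratio of 34.5 against the same floor (edgeR adjusted p = 0.0636). Stem cells had 13 and 13 UMIs in the allogeneic libraries, a ratio of 10.1 (edgeR adjusted p = 0.103, with 0.565% of genes passing as higher). Enteroendocrine cells had 13 and 16 UMIs in 29 and 34 allogeneic cells, a ratio of 13.99 (edgeR adjusted p = 0.136, with 0.264% of genes passing). These ratios too leave out the counting error of the allogeneic UMIs. Enterocytes had 3 and 75 UMIs in the allogeneic libraries and 1 and 0 UMI in the syngeneic libraries, which did not pass the filter on low counts. Tuft cells had 0 and 2 UMIs in the allogeneic libraries.

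Among allogeneic cells Serping1 was highest in enteroendocrine cells (79.4 ± 17.4 CPM, SD, n = 2), whose 2 values lay above both values of Paneth cells (38.7 ± 31.1). From Paneth cells down the neighbours overlapped: goblet cells had 18.6 ± 9.70, stem cells 11.7 ± 8.33, cycling progenitors 11.65 ± 7.81, enterocytes 6.72 ± 6.49 and tuft cells 5.65 ± 7.99 CPM. Allogeneic 2 was above allogeneic 1 in each of these classes.

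**Figure D3:**
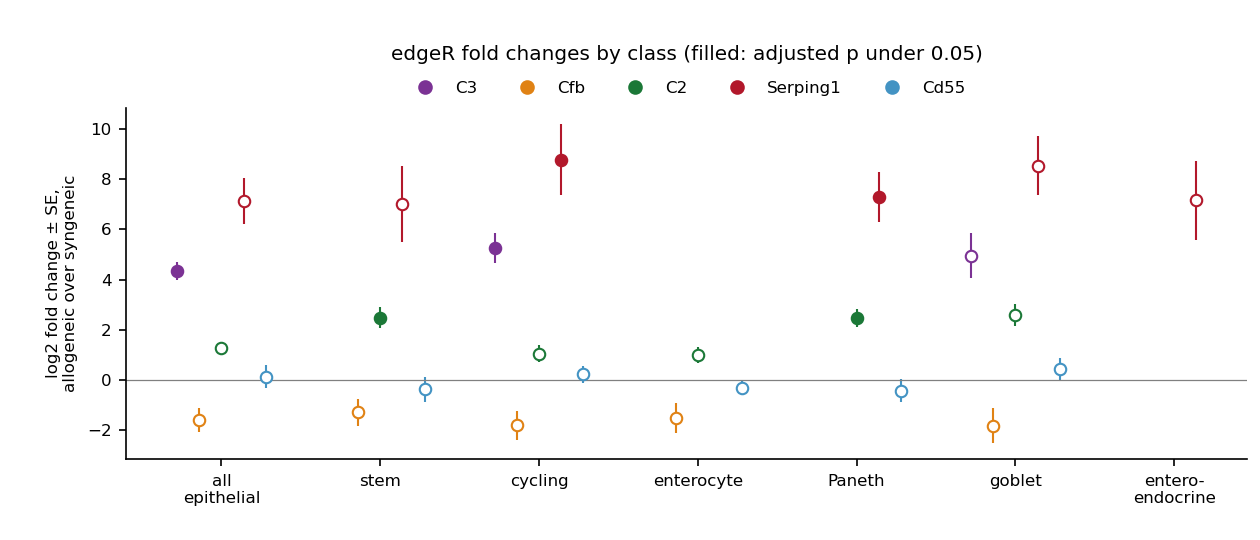
log2 fold change of allogeneic over syngeneic sums with its standard error from edgeR, for C3, Cfb, C2, Serping1 and Cd55 in each class where they were tested. Cd59a, tested only over all epithelial cells, is not drawn. Filled points have an adjusted p under 0.05. C3, C2 and Serping1 lie above 0 and Cfb below 0 wherever they could be tested, and Cd55 lies within 0.5 of 0; Serping1 has no syngeneic count in stem, cycling, goblet and enteroendocrine cells, so its fitted values there depend on the prior count.

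Detection was compared after each cell was thinned to 2000 UMIs, which left out 181 and 641 allogeneic and 196 and 242 syngeneic epithelial cells. C3 then had a UMI in 2.45% and 1.48% of allogeneic epithelial cells and in 0.113% and 0.137% of syngeneic ones. Serping1 had a UMI in 1.41% and 3.40% of allogeneic cells and in 0.0751% and 0% of syngeneic ones, where 0 of 2184 cells has a 95% upper limit of 0.169% on the share of cells with a UMI. C2 had a UMI in 5.34% and 4.45% of allogeneic cells and in 2.03% and 1.88% of syngeneic ones. Unthinned, the group means were 5.12% and 0.226% for C3 and 11.9% and 4.93% for C2, allogeneic and syngeneic.

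T or NK cells were set beside the epithelium as a check on RNA free in the droplets. Their 224 and 181 cells in the allogeneic libraries held no UMI of C3 or Serping1, and 1 and 2 UMIs of C2. Only 81 and 59 of them were deep enough to thin, none with a UMI of C3 or Serping1, and the 95% upper limits on that share were 4.45% and 6.06%. Their median depth was 1582 and 1527 UMIs against 5638 and 4064 in epithelial cells. Serping1 had a UMI in 4.93% (2.39 to 8.87%) and 10.3% (7.11 to 14.3%) of allogeneic Paneth cells, and in 15.4% (4.36 to 34.9%) and 20.8% (7.13 to 42.2%) of allogeneic enteroendocrine cells. In allogeneic 2 both intervals lay above the T or NK limit, and in allogeneic 1 both reached below it. The C3 shares over all epithelial cells were under these limits, so the T or NK cells left after thinning are too few to set them apart. Per UMI, all T or NK cells gave 95% upper limits of 7.51 and 11.35 CPM for C3 and for Serping1. In allogeneic 1 the epithelial interval of C3 began above this limit, at 11.1 CPM, and that of Serping1 below it, at 6.36 CPM. In allogeneic 2 the interval of C3 began below the limit, at 7.65 CPM, and that of Serping1 above it, at 17.6 CPM. The part of free RNA in these levels was not tested.

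**Figure D4:**
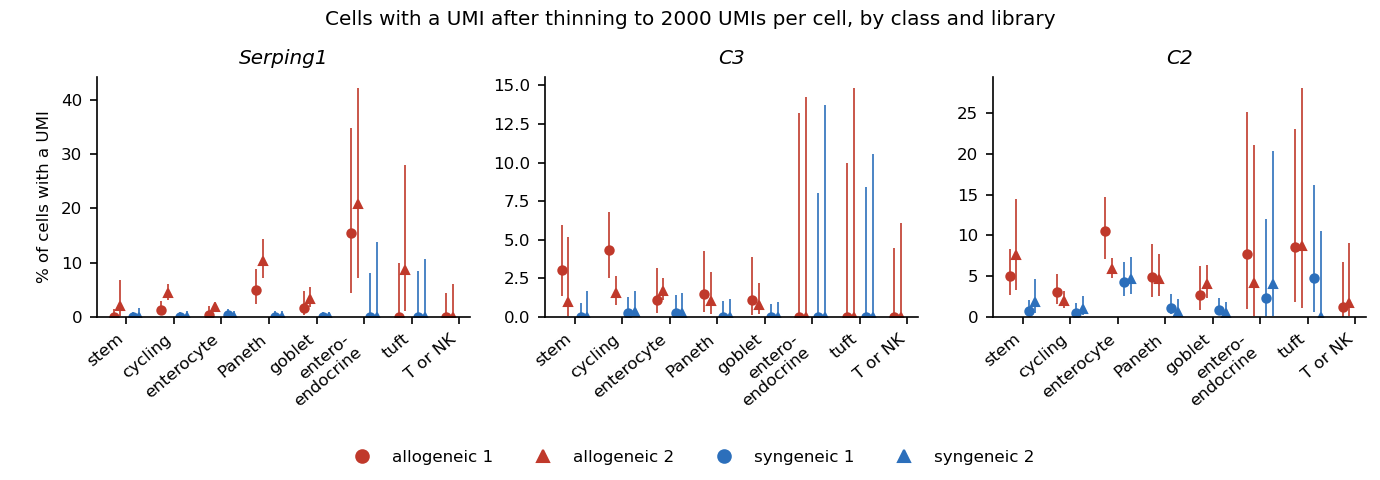
Share of cells with a UMI of Serping1, C3 or C2 after thinning to 2000 UMIs, by class and library, for libraries with at least 20 such cells; bars are 95% Clopper-Pearson intervals. Serping1 is highest in allogeneic enteroendocrine cells at 15.4% and 20.8%, and T or NK cells of the allogeneic libraries hold no Serping1 or C3.

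Cells of other types were few but rich in these genes in allogeneic 1. A single cell there, gated as a fibroblast, held 72 C3 and 25 Serping1 UMIs, or 27.1% and 19.1% of the UMIs of those genes in the kept cells of that library, and it is in no epithelial sum. The 13 myeloid cells of allogeneic 1 held 17 C3 and 15 Cfb UMIs. All 5 fibroblast markers (Col1a1, Col1a2, Col3a1, Dcn and Pdgfra) had 0 UMIs in the epithelial sums of both allogeneic libraries, and the list summed to 0.0602 CPM in syngeneic 1. The 8 myeloid markers summed to 21.9 and 16.02 CPM in allogeneic epithelium and 17.7 and 20.0 CPM in syngeneic epithelium, most of it Cd14, with Adgre1 at 0 in all 4. The 4 endothelial markers summed to 1.32 and 0.370 CPM in allogeneic epithelium and 0.723 and 0.223 CPM in syngeneic epithelium, with Cdh5 and Kdr at 0. When every epithelial cell with a UMI of any fibroblast, endothelial or myeloid marker was left out, a step added after the data were seen, C3 had a log2 fold change of 4.24 ± 0.34 (edgeR adjusted p = 0.0282) and Serping1 of 7.44 ± 1.03 (edgeR adjusted p = 0.104).

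Cd55 (ENSMUSG00000026399, chromosome 1, 130439027 to 130462744), the surface regulator of the C3-cleaving enzymes, had 203 and 768 UMIs in the allogeneic epithelial sums and 396 and 299 UMIs in the syngeneic sums. The levels were 14.9 and 31.5 CPM in allogeneic epithelium and 23.9 and 22.3 CPM in syngeneic epithelium, so the allogeneic libraries lay on either side of both syngeneic ones. The log2 fold change was 0.14 ± 0.46 (edgeR adjusted p = 0.947). It was -0.15 when the classes were given equal weight, -0.80 without allogeneic 2 and 0.68 without allogeneic 1.

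Cd55 was highest in enterocytes in all 4 libraries. Enterocytes had 63.8 and 70.7 CPM in the allogeneic libraries and 102 and 89.2 CPM in the syngeneic libraries, and no other named class exceeded 28.65 CPM in any library; cells that reached no class had 17.7 and 30.01 CPM in the allogeneic libraries and 33.0 and 24.5 CPM in the syngeneic libraries. The enterocyte groups did not overlap, as for 46.3% of all genes in that class, and the log2 fold change of -0.29 ± 0.29 did not pass (edgeR adjusted p = 0.695). Goblet cells had 11.7 and 25.8 CPM in the allogeneic libraries and 15.3 and 16.6 CPM in the syngeneic libraries. The 11 enterocyte markers summed to 1076 and 10000 CPM in the goblet cells of the allogeneic libraries and to 2575 and 2922 CPM in those of the syngeneic libraries, the same order as Cd55, and their part in its level was not tested. Stem cells, cycling progenitors and Paneth cells lay between 4.90 and 9.78 CPM in all 4 libraries, with log2 fold changes of -0.37 ± 0.48, 0.23 ± 0.35 and -0.42 ± 0.45 that did not pass (edgeR adjusted p = 0.936, 0.844 and 0.926).

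Cd59a (ENSMUSG00000032679, chromosome 2, 104095801 to 104115354), the inhibitor of the pore-forming complex, was scarce. It had 28 and 8 UMIs in the allogeneic epithelial sums and 16 and 17 UMIs in the syngeneic sums, or 2.05 and 0.329 CPM against 0.964 and 1.27 CPM, with overlapping groups and a log2 fold change of -0.04 ± 0.76 (edgeR adjusted p = 0.992). The ratio of the summed rates was 0.862 with a counting interval of 0.523 to 1.43. No class had enough Cd59a for a test in the main fits. Goblet cells held 27 of the 33 syngeneic UMIs, with 4 and 2 UMIs in the allogeneic libraries and 11 and 16 UMIs in the syngeneic libraries. Their ratio per UMI was 0.291 (counting interval 0.0983 to 0.720), which does not include the spread between libraries.

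The rest of the cascade was read from 49 other complement genes in 6 lists, of which 48 were in the files. In all epithelial cells 13 passed the filter and none passed the test: 2 classical, 2 lectin, 1 terminal, 1 receptor and 7 regulator genes. Over all genes 0.141% passed in that fit, so the lack of a call does not show that these 13 were unchanged. Their median log2 fold change was -0.16, against 0.03 over the 12051 genes tested. No gene of the alternative pathway list passed the filter. The genes with no count included C6, C7, C8a, C8b, C9, Cfd, C3ar1 and C5ar1, with 0 UMIs in each of the 4 epithelial sums.

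Over all classes, 1 gene of these lists passed the test in 1 class. Cfi, which encodes factor I, the protease that cuts active C3 fragments, had 9 and 5 UMIs in allogeneic cycling progenitors and 21 and 12 UMIs in syngeneic ones, or 1.90 and 0.704 CPM against 6.95 and 4.95 CPM. It fell in allogeneic cells by a log2 fold change of -2.19 ± 0.53 (edgeR adjusted p = 0.0458; 1.39% of genes passed as lower in that class). The call did not hold in DESeq2 (adjusted p = 0.0940), without the robust option (0.0549), with called doublets kept (0.0501), without syngeneic 1 (0.668) or without syngeneic 2 (0.104), the lowest adjusted p of 12 alternatives being 0.000356. In all epithelial cells Cfi had 4.91 and 0.821 CPM in the allogeneic libraries and 7.47 and 9.16 CPM in the syngeneic libraries, and its log2 fold change of -1.66 ± 0.66 fell short of the threshold (edgeR adjusted p = 0.489). Cr1l, which encodes Crry, the rodent surface regulator that acts on the same enzymes as Cd55, averaged 58.0 ± 10.8 CPM in allogeneic epithelium and 62.6 ± 1.99 CPM in syngeneic epithelium (SD, n = 2 each), with a log2 fold change of -0.08 ± 0.20 (edgeR adjusted p = 0.928). C1qbp, a protein found mostly in mitochondria and named for binding C1q, averaged 292 ± 1.76 CPM in allogeneic epithelium and 251 ± 27.0 CPM in syngeneic epithelium, with a log2 fold change of 0.28 ± 0.31 (edgeR adjusted p = 0.842).

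**Figure D5:**
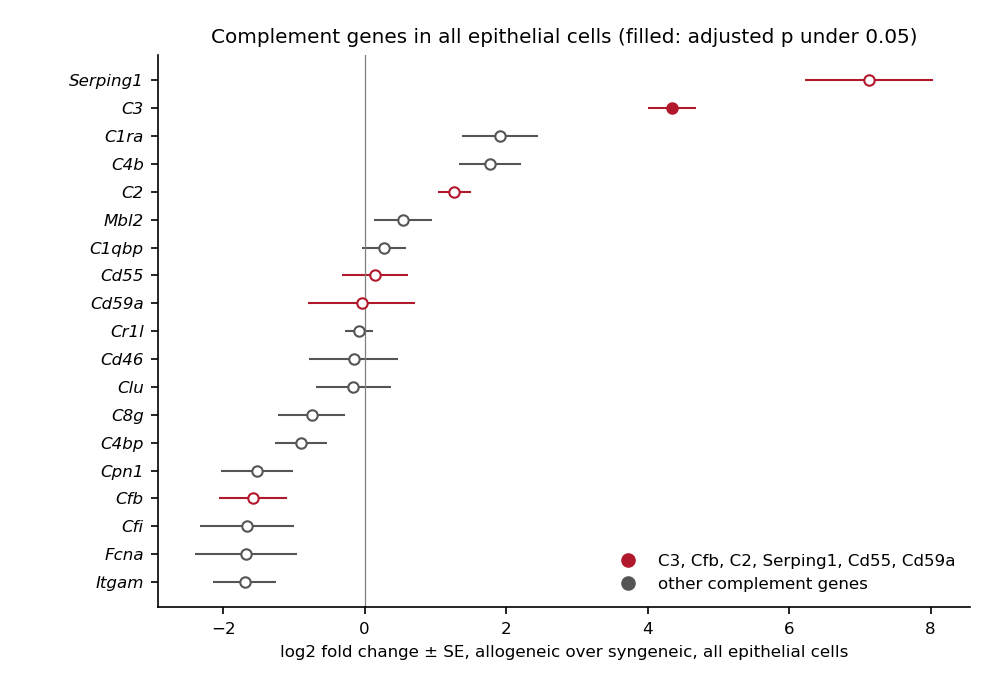
log2 fold change of allogeneic over syngeneic epithelial sums with its standard error from edgeR, for the 6 members and the 13 other complement genes that passed the filter on low counts. Serping1 and C3 have the largest values at 7.13 and 4.34, and C3 alone has an adjusted p under 0.05.

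The genes whose level ran most like each member were sought over 28 sums of 7 classes and 4 libraries, among 7750 genes with at least 10 CPM on average. These correlations of log2(CPM + 1) describe sums that share libraries and depth. The sums also span both groups, so the values do not set likeness across classes apart from a shared difference between groups. C3 ran with Irgm1 (Pearson r = 0.889), H2-Q6 (0.875) and Gm4951 (0.874), and Serping1 with Gbp4 (0.910), Gm4951 (0.875) and Ido1 (0.860). In all epithelial cells Irgm1 had a log2 fold change of 1.63, H2-Q6 4.24, Gm4951 6.82, Gbp4 5.52 and Ido1 6.23. Of these, H2-Q6 and Gm4951 passed the edgeR test. C2 ran with the MHC class I genes H2-D1 (0.906), B2m (0.899) and H2-K1 (0.896), which encode the heavy and light chains of antigen-presenting molecules. Cfb ran with Man1a (0.874), Spata2 (0.803) and Ptdss1 (0.794), and Cd55 with Rfk (0.931), Cndp2 (0.922) and Fahd1 (0.904). Cd59a, with few counts, had lower values, the first being Inafm1 (0.745).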

How the data were processed

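Crypt cells were profiled with the 10x Genomics Chromium 3' kit, per the labels. The deposited values are UMI counts per gene and cell, made by the authors with Cell Ranger 2.1.1 on mm10 per the submitters' processing notes; the file headers give software version 3.1.0, and the annotation release is not given in the sources used here. Dense copies of the counts were not used. Cells needed 500 genes, 1000 UMIs and at most 20% mitochondrial counts, and 9, 77, 3 and 11 doublets called by scrublet (scanpy 1.11.5) in allogeneic 1, allogeneic 2, syngeneic 1 and syngeneic 2 were removed. Epithelial cells carried 2 UMIs of 6 markers; other types needed 3 UMIs over 2 of their markers, and more than of the epithelial ones. A class needed a mean marker z-score of 0.5. Clusters served as an alternative, since some were almost all from 1 group.

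Counts were summed per library and class (at least 20 cells in each library), scaled with TMM after filterByExpr had removed low genes, and entered into edgeR 4.0.16 (robust quasi-likelihood), with Benjamini-Hochberg adjustment over all genes of the fit; DESeq2 1.42.0 was an alternative. The code was tested on simulated data. Other complement genes are named where they passed a test or averaged 5 CPM. The members and lists were chosen with earlier results of these data known. Libraries of a group are numbered by their order in the records, which pairs nothing.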

Additional observations from a re-analysis of the deposited data

Results flagged for a closer look

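In allogeneic 1, cells outside the epithelial sums held C3, Cfb, C2 and Serping1 UMIs, above the floor of 3 counts. The cell gated as a fibroblast had 72 C3, 25 Serping1, 4 C2 and 4 Cfb UMIs among 4047 in all, and the 13 myeloid cells had 17 C3 and 15 Cfb UMIs. The syngeneic libraries had no cell gated as either type to set beside them.

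For C2, the test of the allogeneic effect across the 5 larger classes passed (edgeR adjusted p = 0.0315), as did that of goblet cells against enterocytes (adjusted p = 0.0477, a difference of 1.63 on the log2 scale). C2 was higher in 2 of 2 allogeneic libraries in both classes. Groups did not overlap for 46.3% of all genes in enterocytes and 37% in goblet cells, so this alone is common. Over all 7 classes the same tests gave edgeR adjusted p = 0.0590 and 0.0515, and 3.32% of genes passed the test across classes.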

How the results depend on the processing

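With 2 libraries a group, the calls depended on how the spread was estimated. No paired analysis was possible because the labels carry no replicate numbers. In all epithelial cells, 17 of 12051 genes passed in the main fit and 337 of 12051 in DESeq2. With equal weight for the classes 52 of 12594 passed, and with no filter on low counts 467 of 17779. At the 10% mitochondrial limit 0 of 11666 passed, and 1017 had an unadjusted p under 0.05. In these fits, in that order, 1, 4, 3, 4 and 0 of the 6 members passed. Leaving out 1 library gave 98 to 5731 genes and 2 to 5 members, in fits where the lone library is taken to vary like the other group. The fits without 1 library tested 12319 to 12564 genes, so a call was common in those with the highest counts. C3 fell short of the test at the 10% limit (4.55). Cfb passed in DESeq2 (-1.58) and with no filter (-1.60), C2 in DESeq2 (1.27), with equal weight (1.78) and with no filter (1.25), and Serping1 likewise (7.25, 8.49 and 7.11). With equal weight Cd55 (-0.15) and Cd59a (0.82) changed sign. Without 1 library the log2 fold change ran from 4.14 to 4.52 for C3, -2.45 to -1.03 for Cfb, 1.07 to 1.42 for C2, 6.01 to 7.72 for Serping1, -0.80 to 0.68 for Cd55 and -1.50 to 0.73 for Cd59a.

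By class, with no filter 3 members passed in stem cells, 3 in enterocytes, 4 in goblet cells and 1 in enteroendocrine cells. Over all genes, 237 of 14416, 568 of 13574, 379 of 14594 and 52 of 13005 passed in these fits. With clusters as classes 3 members passed in goblet cells (266 of 10372 genes) and 1 in enteroendocrine cells (26 of 3118). DESeq2 called 2 members in goblet cells (91 of 9589 genes) and the 10% limit 1 in enterocytes (363 of 5489). Without 1 library the log2 fold change of C2 ran from 2.36 to 2.66 in stem cells and 2.27 to 2.63 in Paneth cells. It ran from 2.22 to 2.90 in goblet cells, 0.81 to 1.19 in enterocytes and 0.96 to 1.15 in cycling progenitors. Cluster classes set different clusters against each other: cluster 9 held 1001 of the 1110 allogeneic 2 cells of the goblet class and 1 syngeneic cell. With clusters as classes Cd55 changed sign in enterocytes (0.001) and goblet cells (-0.40); without 1 library its goblet value ran from -0.49 (without allogeneic 2) to 0.951. The C2 difference between classes passed with 5 classes (adjusted p = 0.0315). The genes passed per class moved with the setting too, from 279 to 703 in cycling progenitors and from 13 to 379 in goblet cells without leaving out a library. The cause of these changes was not tested. Cd59a, with at most 28 UMIs in the epithelial sum of a library, passed the filter on low counts in no class of the main fits. It passed that filter in goblet cells under some alternatives, such as clusters as classes.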

Other observations

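Myeloid cells of the allogeneic libraries held complement genes that were scarce in the epithelial sums. In the 13 such cells of allogeneic 1, with 73265 UMIs, C1qa, C1qb and C1qc, which encode the chains of the recognition molecule C1q, had 115, 82 and 80 UMIs. Cfp, which encodes properdin, a stabiliser of the alternative pathway, had 31 UMIs there. The 6 myeloid cells of allogeneic 2, with 14362 UMIs, had 7 UMIs of C1qa, 4 of C1qb and 4 of C1qc. The epithelial sum of allogeneic 2 held 12 C1qa UMIs and that of allogeneic 1 held 0. The single cell gated as a fibroblast had 6 UMIs of C1s1 and 5 of C4b. These are counts in few cells, with no such cell in the syngeneic libraries, so no comparison was made.

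Genes within 100 kb of C2 on chromosome 17 were read in all epithelial cells, a choice made after values were seen. Of 13 tested, Cfb among them, 7 had a log2 fold change above 0, the median was 0.06 and none passed the threshold. The values ran from -1.58 for Cfb to 2.21 for Hspa1a (edgeR adjusted p = 0.348 and 0.116), with Hspa1b, the other inducible heat shock protein gene, at 1.82 (adjusted p = 0.0867), Neu1 at 0.87 (0.489) and Zbtb12 at -0.62 (0.644).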
